A study of Mus musculus with 18 samples.

Results

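Matrix metalloproteinases (MMPs) and their tissue inhibitors (TIMPs) were examined in macrophages sorted from liver metastases. The family was taken as 10 listed genes (Mmp2, Mmp8, Mmp9, Mmp12, Mmp13, Mmp14, Mmp19, Timp1, Timp2 and Timp3), found by symbol among the 13759 genes of the macrophage count table, and all 10 were measured. Liver metastases were grown in female C57BL/6 mice, 8 to 10 weeks old, by injecting cells of the MC38 mouse colon adenocarcinoma line into the spleen, which was then removed, and livers were analysed 20 days after injection. Metastasis-associated macrophages (MAMs) were sorted as lineage-negative CD45+ CD11b+ cells with high or low staining for F4/80, the macrophage surface protein encoded by Adgre1, and RNA was sequenced from 3 F4/80high and 3 F4/80low libraries. Elsewhere the study also calls the latter population F4/80int. A second table held 12 libraries of liver lymphocytes, 3 each of NK cells and group 1 innate lymphoid cells (ILC1) from metastasis-free liver (MFL) and of CD49a- and CD49a+ NK cells from liver metastases (LM) of mice given the same cells, with cells of several mice pooled. The number of mice behind each macrophage library was not given in the sources used here, so p-values measure the spread between these libraries, which may be technical. In sorted bulk samples, fewer cells of a type and less RNA per cell cannot be told apart.

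MMPs are zinc-dependent proteases, secreted or held at the membrane, that cut collagens, elastin and other matrix proteins and also cleave cytokines and receptors. Most are made as inactive precursors, and TIMPs block the active enzymes. The membrane-bound enzyme encoded by Mmp14 binds Timp2, and this complex docks the precursor of Mmp2, a gelatinase that cuts denatured collagen and basement membrane, so that a neighbouring Mmp14 molecule can cleave it. Macrophages, monocytes, neutrophils and fibroblasts are all known sources of members of the family in tumors.

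Sorting on F4/80 was seen in the counts, with Adgre1 at 806 to 1167 CPM (normalised counts, scaled to a common library size) in the F4/80high libraries and 124 to 160 CPM in the F4/80low libraries; as the sorted gene it is no finding. Total counts ranged from 21278959 to 32267015 per library. Of 10 macrophage markers, 8 were higher in F4/80high MAMs, among them Apoe and Csf1r, and none was lower. Adgre1, the sorted gene, is among both the 10 and the 8. Of 8 classical monocyte markers, 7 were lower and 1 was higher. Among all genes tested, 27.8% were higher and 27.1% lower. The F4/80low libraries also held more RNA of dendritic cell markers, whose summed level was 398 to 714 CPM against 11.5 to 19.0 CPM in the F4/80high libraries, with 7 of 8 genes lower in F4/80high MAMs, among them Ccr7 and Cd209a. Their neutrophil markers summed to 159 to 364 CPM against 76.4 to 105 CPM, whereas fibroblast and stellate cell markers summed to 267 to 568 CPM in F4/80high against 48.5 to 156 CPM in F4/80low libraries.

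The 10 genes fell into a group that was higher in F4/80high MAMs and a larger one that was lower. Mmp2, Mmp14 and Timp2 rose, Mmp8, Mmp9, Mmp12, Mmp13, Mmp19 and Timp1 fell, and Timp3 did not pass the test, the quasi-likelihood test of edgeR, with p-values adjusted by Benjamini-Hochberg over all 13759 genes and a threshold of 0.1. The 9 called members stand against a background in which 54.9% of all genes tested were called, 27.8% higher and 27.1% lower, so a call in this comparison is common and the sizes of the differences carry more than the count. The median log2 fold change of the 10 members, F4/80high minus F4/80low, was -1.44 against 0.01 over all genes tested. The members were chosen with earlier results of these data known, so this median only describes the list. In 8 of the 10 members the 3 F4/80high and 3 F4/80low libraries did not overlap, which was so for 58.4% of all genes tested.

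**Figure D1:**
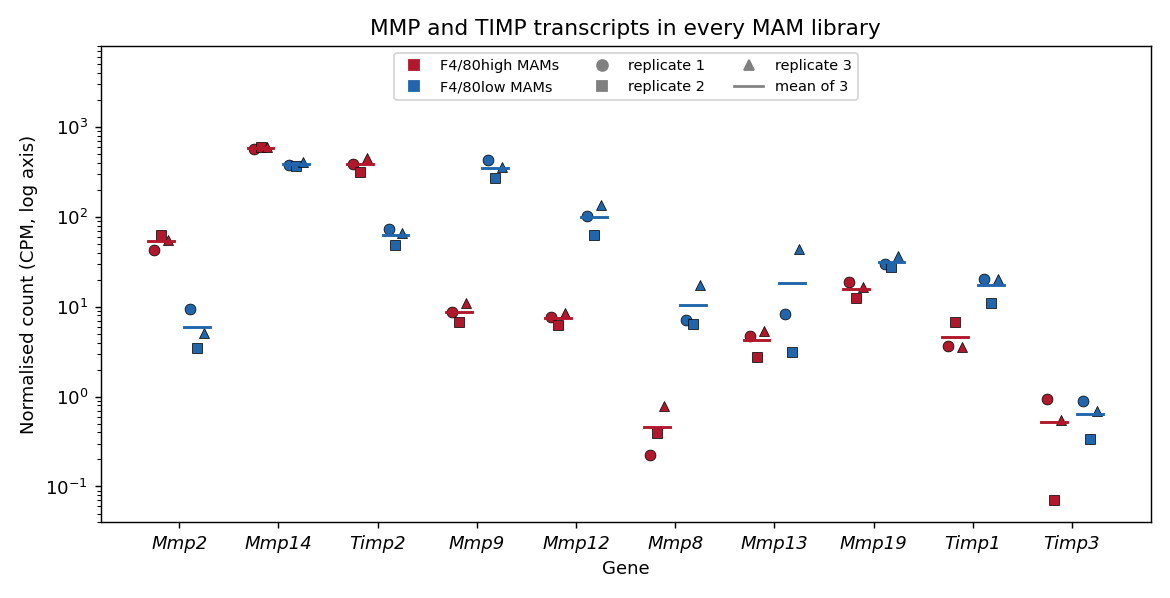
Each point is 1 MAM library, with the normalised count of the gene in CPM on a log axis, F4/80high in red and F4/80low in blue, symbols for the replicate number and a line at the mean of 3. Mmp2, Mmp14 and Timp2 lie higher in all F4/80high libraries, Mmp9 spans 6.84 to 427 CPM over the 6 libraries, and Mmp13 and Timp3 overlap between the groups.

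Promoters were read from the RefSeq promoter table (build GRCm38.p6), which 7 of the 10 members matched and Mmp2, Mmp9 and Mmp19 did not. The 250 bases before the annotated start are shown for 3 members that fell and 2 that rose, since the first 3 (Mmp13, Mmp12 and Mmp8) are neighbours on chromosome 9 and the other 2 encode the complex that docks the Mmp2 precursor. Capitals mark the motifs searched on both strands, which were the AP-1 motif (TGACTCA or TGAGTCA), the TATA motif (TATAAA or TTTATA) and the GC box (GGGCGG or CCGCCC). Mmp12 has 2 annotated starts in the table and the downstream one is shown.
Mmp13 (chr9:7272264-7272513, strand +): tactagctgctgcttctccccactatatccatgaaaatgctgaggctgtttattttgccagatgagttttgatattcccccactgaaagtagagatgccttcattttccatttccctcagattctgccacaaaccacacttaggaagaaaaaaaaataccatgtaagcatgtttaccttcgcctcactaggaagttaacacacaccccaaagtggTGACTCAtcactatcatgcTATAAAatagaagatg
Mmp12 (chr9:7347124-7347373, strand +): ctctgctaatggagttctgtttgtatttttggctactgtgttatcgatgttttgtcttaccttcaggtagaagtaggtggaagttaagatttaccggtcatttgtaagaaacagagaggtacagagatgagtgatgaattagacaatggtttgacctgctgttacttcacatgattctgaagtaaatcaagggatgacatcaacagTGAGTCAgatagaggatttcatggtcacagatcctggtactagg
Mmp8 (chr9:7558179-7558428, strand +): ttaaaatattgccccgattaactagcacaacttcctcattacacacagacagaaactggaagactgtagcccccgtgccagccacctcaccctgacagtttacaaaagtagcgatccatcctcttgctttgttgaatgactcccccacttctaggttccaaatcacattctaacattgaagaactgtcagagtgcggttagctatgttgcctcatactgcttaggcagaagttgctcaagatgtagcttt
Mmp14 (chr14:54431348-54431597, strand +): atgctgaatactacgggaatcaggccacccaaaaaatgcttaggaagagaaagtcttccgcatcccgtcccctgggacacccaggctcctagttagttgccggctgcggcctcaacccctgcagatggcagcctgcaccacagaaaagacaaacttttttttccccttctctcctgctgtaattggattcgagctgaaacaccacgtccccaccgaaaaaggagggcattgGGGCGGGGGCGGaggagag
Timp2 (chr11:118355412-118355661, strand -): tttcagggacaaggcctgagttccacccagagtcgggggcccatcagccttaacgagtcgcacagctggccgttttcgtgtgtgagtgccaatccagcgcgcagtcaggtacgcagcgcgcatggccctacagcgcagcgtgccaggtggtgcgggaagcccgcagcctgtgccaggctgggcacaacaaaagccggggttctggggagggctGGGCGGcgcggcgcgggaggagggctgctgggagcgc
The Mmp13 promoter held an AP-1 motif whose first base lay 35 bases before the start and a TATA motif 16 bases before it, and the downstream Mmp12 promoter held an AP-1 motif 44 bases before the start. No motif of the 3 was found in the Mmp8 window or in that of the upstream Mmp12 start. The Mmp14 and Timp2 windows held GC boxes, a pair of them 19 and 13 bases before the Mmp14 start and 1 of them 37 bases before the Timp2 start, and GC boxes also lay in the Timp1 and Timp3 windows. Of 32851 promoter windows of the same length, 4.46% held the AP-1 motif, 12.4% the TATA motif and 32.7% the GC box. GC content was 40.4% for Mmp13, 39.6% for the downstream Mmp12 start and 44.8% for Mmp8, against 55.2% for Mmp14 and 68.0% for Timp2, where the median over all windows was 52.4%. The window of Timp1, which fell, stood at 54.4%, near that of Mmp14, and the Timp3 window at 65.6%. Among called members with a window, those that fell thus stood at 39.6% to 54.4% and those that rose at 55.2% and 68.0%, a narrow gap. Timp3 was not called, and Mmp2, Mmp9 and Mmp19 had no window to compare. A match is a description of the letters in the window and was not tested for binding.

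Mmp14, the membrane-anchored collagenase that activates the Mmp2 precursor, was the most abundant MMP of F4/80high MAMs per length. It measured 576, 605 and 595 CPM in the F4/80high libraries and 378, 371 and 414 CPM in the F4/80low libraries. All F4/80high libraries were above all F4/80low ones, by 1.53-fold (log2 fold change 0.61, SE 0.08, adjusted p = 0.000595), and replicates lay close together in both groups. Timp2, which at the membrane serves as the link between Mmp14 and the Mmp2 precursor and in excess inhibits both enzymes, measured 386, 320 and 450 CPM in F4/80high and 73.4, 48.2 and 65.6 CPM in F4/80low libraries. The groups were far apart, with a 6.17-fold higher level in F4/80high MAMs (log2 fold change 2.63, SE 0.18, adjusted p = 1.71e-05).

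Mmp2, the gelatinase that this complex activates, had the highest fold of the 3 genes that rose. Its levels were 42.5, 62.7 and 55.8 CPM in F4/80high and 9.49, 3.48 and 5.10 CPM in F4/80low libraries. All F4/80high libraries were above all F4/80low ones, and the fitted difference was 8.86-fold (log2 fold change 3.15, SE 0.33, adjusted p = 0.000129). Mmp2 is a gene that fibroblasts and stellate cells are known to express, and 5 of the 9 markers of those cells with a row in the table were also higher in F4/80high MAMs, none lower. The share of all genes tested that were higher was 27.8%. In each group the libraries came in the same order for Mmp2 as for the summed fibroblast and stellate cell markers, which were at 267, 568 and 320 CPM in F4/80high replicates 1, 2 and 3 and at 156, 48.5 and 101 CPM in the F4/80low replicates. Of the defining genes, Col1a2 measured 111, 336 and 140 CPM in F4/80high and 41.8, 18.6 and 30.4 CPM in F4/80low libraries, and Col3a1 averaged 131 ± 31.8 against 38.2 ± 23.2 CPM (SD, n = 3); Col1a1 did not pass the test, and Lum, Des and Lrat had no row and were not analysed here. Timp2 was lowest in F4/80high replicate 2, where the marker sum, Col1a2, Col3a1 and Mmp2 were highest and Col1a1 was lowest. In the F4/80low libraries, however, Timp2 came in the order of the marker sum, at 73.4, 48.2 and 65.6 CPM in replicates 1, 2 and 3. Mmp14 came in the order of that sum in the F4/80high libraries (576, 605 and 595 CPM) but not in the F4/80low ones (378, 371 and 414 CPM). The part of fibroblast RNA in the Mmp2, Timp2 and Mmp14 differences was not tested.

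**Figure D2:**
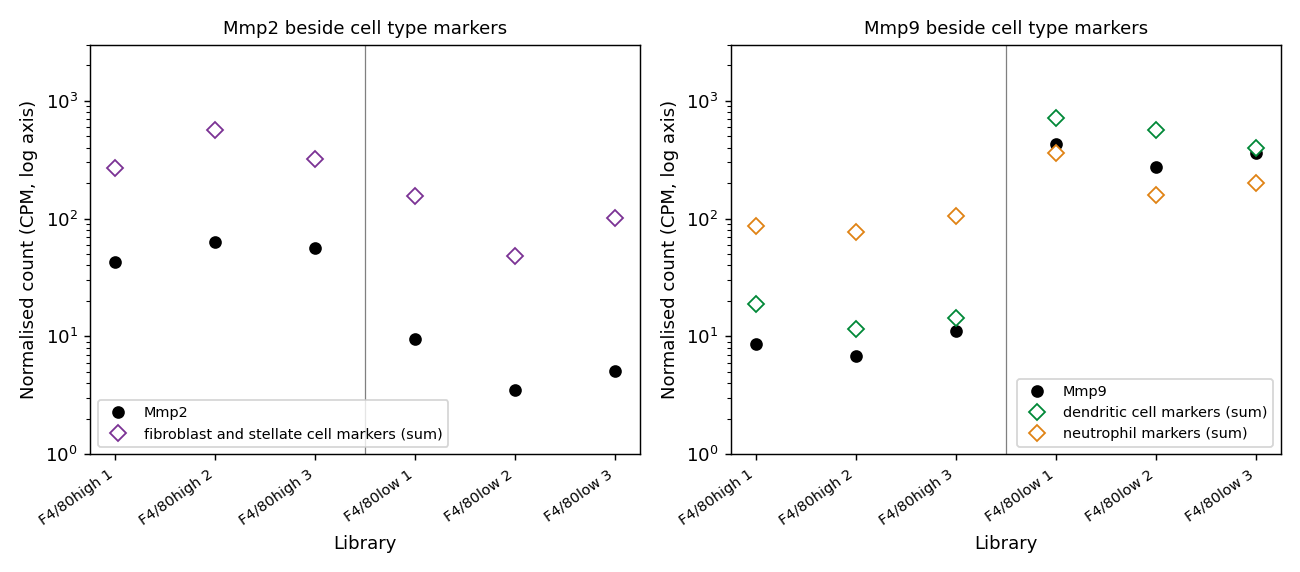
Levels in CPM on a log axis are shown for each of the 6 MAM libraries, with Mmp2 beside the sum of fibroblast and stellate cell markers (left) and Mmp9 beside the sums of dendritic cell and neutrophil markers (right); the vertical line separates F4/80high from F4/80low libraries. Mmp2 and its marker sum are both highest in F4/80high replicate 2, and Mmp9 and both its marker sums are highest in F4/80low replicate 1.

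Mmp9, the other gelatinase, went the opposite way and had the widest difference of the family. It measured 8.64, 6.84 and 11.1 CPM in F4/80high and 427, 273 and 358 CPM in F4/80low libraries. The groups lay far apart, with a 39.8-fold lower level in F4/80high MAMs (log2 fold change -5.31, SE 0.24, adjusted p = 2.48e-06). Mmp9 lies on chromosome 2 (164780439 to 164797771 in GRCm39, plus strand), and none of its exons overlaps an exon of another annotated gene. Timp1, the inhibitor that binds the Mmp9 precursor, measured 3.65, 6.73 and 3.60 CPM in F4/80high and 20.3, 11.1 and 20.6 CPM in F4/80low libraries. It was lower in all F4/80high libraries, by 3.71-fold (log2 fold change -1.89, SE 0.32, adjusted p = 0.00162), and its highest F4/80high value was in replicate 2.

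Mmp9 and Mmp8 are stored in neutrophil granules, and mature dendritic cells are also known to make Mmp9, so the markers of both cell types are given beside them. Of 14 neutrophil markers 9 had a row, of which 8 were lower in F4/80high MAMs and Csf3r did not pass the test, at 85.7 ± 15.7 against 75.2 ± 8.67 CPM (SD, n = 3). The share of all genes tested that were lower was 27.1%. Ly6g, Camp, Mpo, Elane and Stfa2l1 had no row and were not analysed here. Il1r2, the most abundant of the markers that fell, measured 164, 65.4 and 104 CPM in F4/80low replicates 1, 2 and 3 and averaged 3.14 ± 2.14 CPM in F4/80high libraries (SD, n = 3), and its F4/80low libraries came in the same order as those of Mmp9. The granule genes Ngp and S100a9, named after their values were seen, stood at 51.4 and 32.8 CPM in F4/80low replicate 1, at 1.30 and 1.91 CPM in replicate 2 and at 5.06 and 5.41 CPM in replicate 3, which is again that order. Retnlg and Cebpe were highest in replicate 3, at 2.94 and 1.77 CPM, as was Mmp8. Cxcr2 (3.71, 1.37 and 0.48 CPM in F4/80low replicates 1, 2 and 3) and Csf3r (66.8, 84.1 and 74.8 CPM) came in orders other than that of Mmp9. Apart from Csf3r, these genes were likewise named after their values were seen. Without F4/80low replicate 1 the log2 fold change was -5.16 for Mmp9 and -4.62 for Mmp8. Without F4/80low replicate 3 it was -5.30 for Mmp9 and -3.81 for Mmp8. Among dendritic cell markers, Ccr7 averaged 211 ± 97.4 CPM in F4/80low against 3.27 ± 2.37 CPM in F4/80high libraries and Cd209a 128 ± 16.3 against 1.93 ± 0.97 CPM (SD, n = 3). The summed dendritic cell markers were 714, 560 and 398 CPM in F4/80low replicates 1, 2 and 3, which is not the order of Mmp9. Ccr7 and Cd209a came in the order of that sum. Classical monocyte markers, 7 of 8 of them lower in F4/80high MAMs, summed to 2395, 2358 and 2747 CPM in F4/80low replicates 1, 2 and 3. That is the order of Mmp8 and not that of Mmp9. The part of any of these cell types in the Mmp9 and Mmp8 differences was not tested.

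Mmp12, Mmp13 and Mmp8 lie in the MMP cluster of chromosome 9, between 7272514 and 7568487 in GRCm39 and all on the plus strand, and all had lower fitted levels in F4/80high MAMs. Mmp12, the macrophage elastase, measured 7.74, 6.34 and 8.43 CPM in F4/80high and 104, 63.5 and 135 CPM in F4/80low libraries. All F4/80low libraries were higher, and the level was 13.4-fold lower in F4/80high MAMs (log2 fold change -3.75, SE 0.28, adjusted p = 2.24e-05). Mmp8, the collagenase of neutrophils, was near the lower limit of the F4/80high libraries at 0.23, 0.39 and 0.78 CPM, which are 5, 11 and 24 counts. In the F4/80low libraries it measured 7.16, 6.39 and 17.5 CPM, so the groups did not overlap, and the fitted level was 21.2-fold lower in F4/80high MAMs (log2 fold change -4.41, SE 0.54, adjusted p = 0.000307).

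Mmp13, a collagenase of fibrillar collagens, rested on 1 library. It measured 4.73, 2.76 and 5.42 CPM in F4/80high and 8.41, 3.11 and 43.7 CPM in F4/80low libraries, so the groups overlapped and F4/80low replicate 3 stood apart. The fall had an adjusted p of 0.0693 (log2 fold change -2.09, SE 0.83), and without F4/80low replicate 3 the log2 fold change was -0.41 with an adjusted p of 0.494. Leaving out any 1 of the F4/80high libraries also ended the call, at adjusted p from 0.115 to 0.176, with log2 fold changes of -1.84 to -2.31. The remaining members of the chromosome 9 cluster (Mmp1a, Mmp1b, Mmp3, Mmp7, Mmp10, Mmp20 and Mmp27) had no row in the macrophage table and were not analysed here.

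Mmp19, a secreted enzyme of basement membrane proteins, measured 18.7, 12.5 and 16.5 CPM in F4/80high and 29.8, 27.7 and 36.9 CPM in F4/80low libraries. The groups did not overlap, and the level was 1.98-fold lower in F4/80high MAMs (log2 fold change -0.98, SE 0.17, adjusted p = 0.00163). Timp3, the inhibitor that is bound to the matrix, was close to the limit of detection, at 2 to 27 counts per library. It measured 0.95, 0.07 and 0.55 CPM in F4/80high and 0.89, 0.34 and 0.69 CPM in F4/80low libraries, which overlapped (log2 fold change -0.32, SE 0.72, adjusted p = 0.738), and a difference was not detectable at this depth. The sign of this value turned without F4/80high replicate 2.

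By the GENCODE M39 annotation (GRCm39), the members outside the chromosome 9 cluster are spread over the genome. Mmp2 spans 93553902 to 93580049 of chromosome 8, Mmp14 spans 54668878 to 54682821 of chromosome 14 and Timp2 spans 118191887 to 118246566 of chromosome 11, on the minus strand. Timp1 lies on chromosome X (20736316 to 20740976), and Timp3 (86136236 to 86185371) and Mmp19 (128626773 to 128636695) lie far apart on chromosome 10. Exons of Mmp19, Timp3 and Mmp12 overlap exons of Tmem198b, Syn3 and Mmp1b on the other strand, and Mmp2, Mmp8, Mmp14 and Mmp19 each overlap a long non-coding RNA there. Exons of Timp2 overlap those of Cep295nl on its own strand. Whether counting used strand was not given in the sources used here, so reads of such partners could not be told apart.

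**Figure D3:**
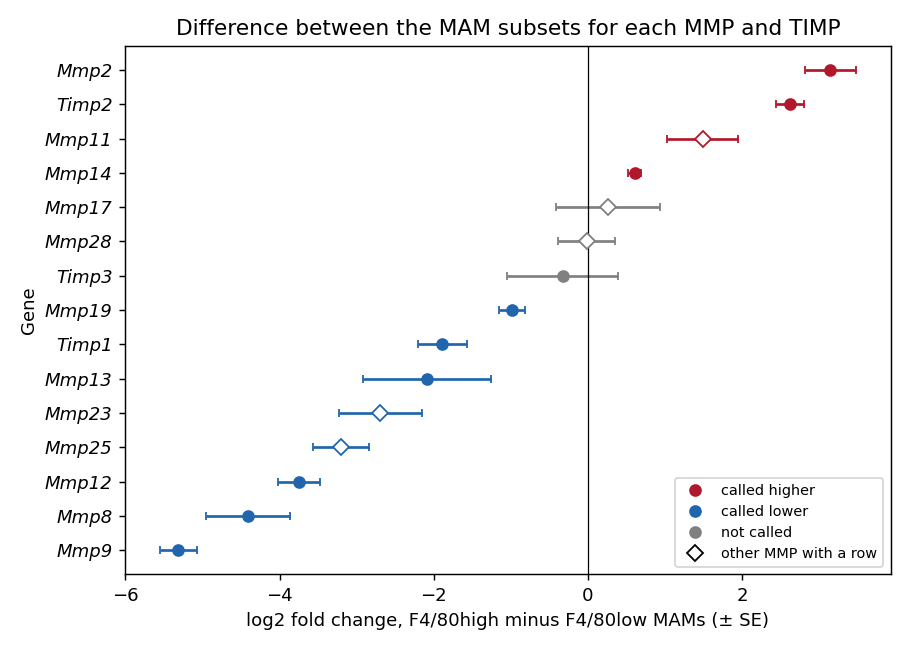
Points give the log2 fold change, F4/80high minus F4/80low MAMs, with bars of 1 SE from the edgeR fit, for the 10 members (filled circles) and the 5 other MMPs with a row (open diamonds), coloured by whether the gene was called higher, lower or not. Mmp2 stands at 3.15, Timp2 at 2.63 and Mmp9 at -5.31.

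Levels were compared between genes only after dividing CPM by the length of all annotated exons in kilobases (CPM per kb). In F4/80high MAMs the order began with Mmp14 at 96.0 ± 2.47 and Timp2 at 86.4 ± 14.6 CPM per kb (SD, n = 3), which overlapped, followed by Mmp2 at 15.2 ± 2.91 and Mmp19 at 4.50 ± 0.89 CPM per kb, each separate from the gene before it. Mmp9, Timp1, Mmp13 and Mmp12 came next, from 2.39 down to 1.04 CPM per kb on average, and each overlapped its neighbour in this order. Mmp8 stood apart below them at 0.19 ± 0.12 CPM per kb. In F4/80low MAMs Mmp9 came first at 95.2 ± 20.8 CPM per kb, apart from Mmp14 at 62.9 ± 3.74 CPM per kb, which was itself apart from Timp2 at 10.8 to 16.5 CPM per kb. From Timp2 through Mmp12, Mmp19, Timp1, Mmp13, Mmp8 and Mmp2 every neighbour overlapped. Timp3 was last in both groups, at 0.06 and 0.08 CPM per kb. The order of the leading genes depended on the length used. With the longest transcript in place of all exons, Mmp14 (172 ± 4.41 CPM per kb) no longer overlapped Timp2 (101 ± 17.1) in F4/80high MAMs, and in F4/80low MAMs Mmp14 (112 ± 6.68) came before Mmp9 (106 ± 23.2), with overlap (SD, n = 3).

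By the length of all exons, Mmp14 made up 78.2% to 80.5% of the summed level of the 7 MMPs per length in F4/80high libraries and 29.5% to 38.7% in F4/80low libraries, where Mmp9 made up 44.4% to 55.4% against at most 2.42%. With the longest transcript, Mmp14 made up 85.3% to 87.1% in F4/80high and 39.4% to 49.6% in F4/80low libraries and Mmp9 36.6% to 46.0% in the latter, so which of them led in F4/80low MAMs was not settled. By all exons, Mmp2 made up 10.4% to 14.4% in F4/80high and 0.64% to 1.29% in F4/80low libraries. Timp2 gave 95.4% to 98.1% of the summed TIMP level in F4/80high and 58.1% to 65.4% in F4/80low libraries, with nearly all the rest from Timp1. The summed MMP level was 115.9, 123.4 and 123.5 CPM per kb in the F4/80high and 208, 155 and 218 CPM per kb in the F4/80low libraries, while the summed TIMP level was 88.6, 75.1 and 103 against 26.9, 16.5 and 25.3 CPM per kb. The ratio of the sums was 1.38 ± 0.23 in F4/80high and 8.58 ± 0.84 in F4/80low MAMs (SD, n = 3), and the groups did not overlap. These sums and shares cover the listed members only. They leave out Mmp25, at 5.85 to 12.7 CPM in F4/80high and 57.0 to 132 CPM in F4/80low libraries. With the longest transcript as the length, these ratios were 1.96 and 10.3.

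**Figure D4:**
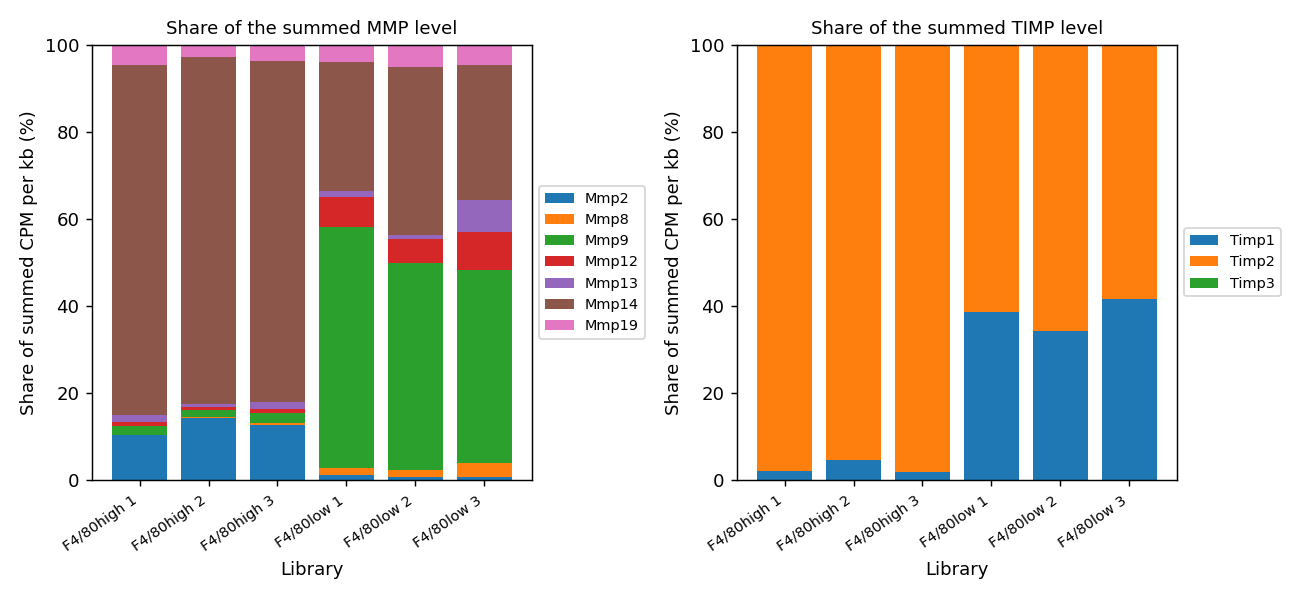
Stacked bars give the share of each gene, in percent, in the summed CPM per kb of all annotated exons for the 7 MMPs (left) and the 3 TIMPs (right) in each MAM library. Mmp14 takes 78.2% to 80.5% of the MMP sum in F4/80high libraries, and Mmp9 takes 44.4% to 55.4% in F4/80low libraries, where with the longest transcript as length Mmp14 and Mmp9 overlap.

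For each enzyme and its partner the balance was also compared within libraries. Mmp14 stood at 1.14 ± 0.21 times Timp2 per length in F4/80high and at 4.62 ± 0.92 times in F4/80low MAMs (SD, n = 3), without overlap; with the longest transcripts these were 1.74 ± 0.33 and 7.08 ± 1.41 times. Mmp9 stood at 1.14 ± 0.55 times Timp1 in F4/80high and at 11.1 ± 1.90 times in F4/80low MAMs, again without overlap. The ratio of Mmp2 to Timp2 was 0.14 to 0.25 in F4/80high and 0.09 to 0.16 in F4/80low libraries, and these overlapped. These are ratios of transcripts, and neither protein nor enzyme activity was measured.

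Of 17 other MMP and TIMP genes listed, 5 had a row, of which 1 rose and 2 fell, with a median log2 fold change of -0.02. For this list and the next, the shares over all genes tested were 27.8% that rose and 27.1% that fell. Mmp25, a membrane-anchored enzyme known from leukocytes, measured 132, 84.0 and 57.0 CPM in F4/80low against 11.2, 5.84 and 12.7 CPM in F4/80high libraries (log2 fold change -3.20, SE 0.36, adjusted p = 0.000205). Mmp11 (0.38 to 3.28 CPM) was the gene that rose and Mmp23 (0.07 to 1.12 CPM) the other that fell, while Mmp17 and Mmp28 did not pass the test. Of 15 ADAM and ADAMTS metalloproteinases with a row, 10 rose and 1 fell (median log2 fold change 0.63). Adam9 averaged 308 ± 45.8 CPM in F4/80high against 153 ± 15.7 CPM in F4/80low libraries (SD, n = 3), Adam15 531 ± 37.8 against 344 ± 40.5 CPM and Adamts14 10.3 ± 4.26 against 3.42 ± 1.96 CPM. Adam8, a leukocyte sheddase, was the gene that fell, at 204 to 243 against 273 to 575 CPM, with the highest value in F4/80low replicate 3.

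Genes that activate, inhibit or bind MMPs went in both directions. Of 19 with a row, 4 rose and 8 fell (median log2 fold change -0.02), where 27.8% of all genes tested rose and 27.1% fell. The urokinase gene Plau, whose product starts plasmin-dependent activation of several MMPs, rose (366 ± 71.6 against 134 ± 2.99 CPM, SD, n = 3), whereas its receptor gene Plaur fell (63.2 ± 9.85 against 176 ± 51.0 CPM). Cd63, which encodes a surface partner of Timp1, rose to 259 ± 9.04 from 53.9 ± 17.4 CPM while Timp1 itself fell, and Itgav rose with a log2 fold change of 0.25. Thbs1, which encodes thrombospondin 1, fell with a log2 fold change of -2.52 and was highest in F4/80low replicate 3 at 2793 CPM, and Itgb3 fell with a log2 fold change of -2.83.

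More of the matrix protein genes, many of them MMP substrates, rose than fell in F4/80high MAMs. Of 22 matrix protein genes with a row, 12 rose and 3 fell (median log2 fold change 1.32), where 27.8% of all genes tested rose and 27.1% fell. Col14a1, a collagen that binds fibrils, measured 269, 229 and 352 CPM in F4/80high and 7.98, 7.10 and 11.2 CPM in F4/80low libraries (log2 fold change 5.02, SE 0.23, adjusted p = 2.74e-06), and unlike Col1a2 and Hspg2, which were highest in F4/80high replicate 2, it was lowest in that library. Vcan, Fn1 and Spp1 were the genes that fell, with log2 fold changes of -1.84, -0.67 and -0.68, and Spp1 overlapped between the groups at 537 to 578 against 563 to 1415 CPM. Several of these genes are also in the fibroblast and stellate cell list, and the part of such cells in the matrix differences was not tested.

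Genes for the uptake and lysosomal breakdown of collagen moved in both directions. Of 11 with a row, 5 rose and 3 fell (median log2 fold change 0.64), where 27.8% of all genes tested rose and 27.1% fell. The scavenger receptor gene Stab1 rose (3463 ± 748 against 315 ± 65.2 CPM, SD, n = 3), as did Mrc1, which encodes a mannose receptor that binds collagen (1372 ± 309 against 228 ± 27.6 CPM), and Lgmn, the asparaginyl endopeptidase of lysosomes (3064 ± 219 against 888 ± 155 CPM). Ctsk, which encodes the collagen-degrading cathepsin K, fell, at 5.76, 2.34 and 3.70 CPM in F4/80high against 291, 164 and 230 CPM in F4/80low libraries (log2 fold change -5.88, SE 0.34, adjusted p = 7.19e-06). Dpp4 fell with a log2 fold change of -5.29 and Mfge8 with one of -1.68.

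In the lymphocyte libraries, which form a table of their own made with another library kit and were scaled to their own totals (8795721 to 14386834 counts), only Mmp9 and Timp2 of the 10 members were above 3 counts in every library of any group. Mmp9 measured 102, 164 and 163 CPM in MFL ILC1 libraries (1264, 2035 and 1639 counts). In MFL NK cells it was at 0, 6 and 0 counts, in LM CD49a- NK cells at 0, 0 and 1 and in LM CD49a+ NK cells at 0, 21 and 0 counts. The ILC1 libraries thus did not overlap any NK library, and the exact permutation p (two-sided, log2 of CPM plus 1) was 0.1 against MFL NK cells, the smallest that 3 against 3 libraries allow; this comparison was chosen after the values were seen. Neutrophil markers summed to 0.60 to 5.00 CPM and dendritic cell markers to 3.32 to 5.85 CPM in the ILC1 libraries, and the summed macrophage markers were 24.6 to 69.3 CPM there and 13.9 to 43.5 CPM in MFL NK libraries. The summed tumor epithelium markers were also higher in MFL ILC1 (90.7, 65.4 and 69.3 CPM) than in MFL NK libraries (0.31 to 2.35 CPM). Within ILC1 they were highest in replicate 1, where Mmp9 was lowest. In LM CD49a+ NK libraries they were 24.0 to 48.8 CPM, while Mmp9 was at 0, 21 and 0 counts. The part of other cell types in the Mmp9 level was not tested. Timp2 measured 16.3 to 89.8 CPM over all 12 libraries, with group means of 62.1 ± 20.9 CPM in MFL NK, 56.7 ± 16.0 in LM CD49a- NK, 47.8 ± 37.8 in LM CD49a+ NK and 46.8 ± 8.57 CPM in MFL ILC1 (SD, n = 3), and all groups overlapped. The other 8 members had at most 14 counts in any lymphocyte library. No level is compared between the macrophage and lymphocyte tables, since they were made with different kits.

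**Figure D5:**
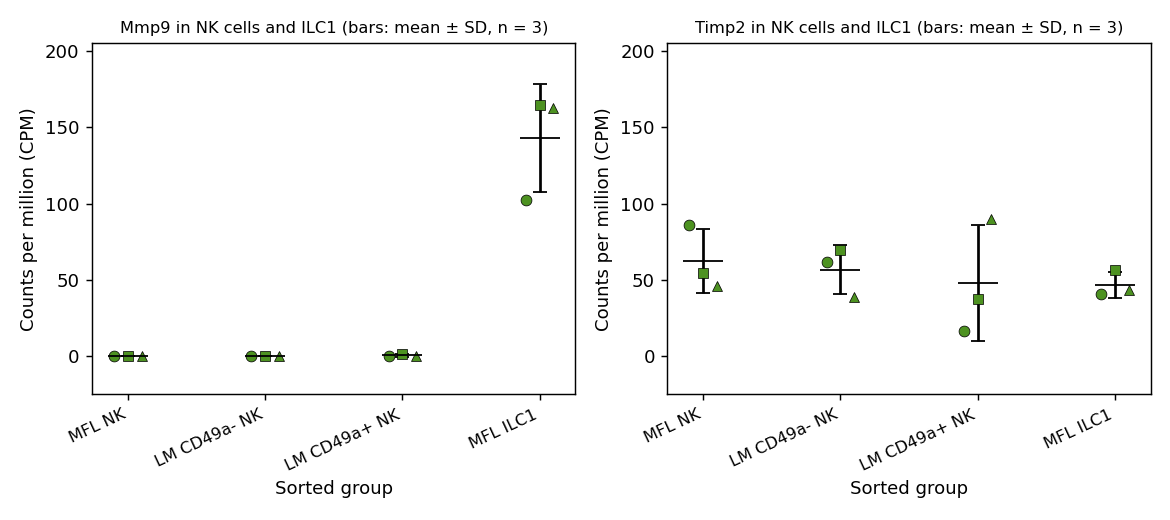
CPM of Mmp9 (left) and Timp2 (right) in the 12 lymphocyte libraries, by sorted group, with 1 point per library and the mean ± SD of 3 libraries. Mmp9 is at 102 to 164 CPM in MFL ILC1 and at most 1.76 CPM in the NK cell libraries, and Timp2 is measured in all 12.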

How the data were processed

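Bulk RNA-seq of 6 MAM libraries (poly(A), directional kit) was analysed, and 12 lymphocyte libraries (stranded total RNA kit) were described. The authors trimmed reads with Trim Galore and deposited per-gene estimated counts from Salmon (1.10.0 for MAMs and 1.5.0 for lymphocytes, GRCm39; submitters' processing notes); the deposited values were already whole. Trimming and quantification settings for the MAM table, and any gene filter before deposit, were not given in the sources used here; the lowest gene total was 37 counts over 6 libraries. Of 13759 identifiers for MAMs, GENCODE M39 named 13726, and it also gave positions and exon lengths.

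The members and gene lists were chosen with earlier results of these data known. edgeR 4.0.16 (R 4.3.3) was fitted to the 6 MAM libraries (TMM, filterByExpr, quasi-likelihood test, Benjamini-Hochberg over all genes, called at adjusted p under 0.1); the filter kept all 13759 genes. The SE is the log2 fold change divided by the square root of F. CPM values use TMM-scaled library sizes for MAMs and plain totals for lymphocytes. Named genes were all members, up to 3 called genes per direction of each pathway list at a mean of at least 5 CPM, and the 2 most abundant markers of each cell type list; other names are given for small counts or, as the text says, were chosen after their values were seen. Fits with DESeq2 1.42.0 and limma-voom 3.58.1, other scalings and filters, a replicate block and each library left out were alternatives. The scripts were tested on simulated data.

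Remaining marker lists, as summed CPM in F4/80high and then F4/80low libraries, were 954 to 1229 and 2358 to 2747 for classical monocyte markers (Ccr2 and F13a1 the most abundant), 70.9 to 101 and 12.6 to 19.2 for Kupffer cell markers (Folr2, Timd4), 20.6 to 26.7 and 47.3 to 50.9 for endothelial markers (Pecam1, Kdr), 1.88 to 11.2 and 1.95 to 5.33 for hepatocyte markers (Alb, Apoa1), 8.56 to 12.1 and 199 to 283 for tumor epithelium markers (Cdh1, Epcam), 5.24 to 19.7 and 5.79 to 24.1 for T, B and NK cell markers (Cd79a, Cd3e), and 1.31 to 27.7 and 1.37 to 63.7 for erythroid markers (Hbb-bs, Hba-a1). Macrophage markers (Apoe, Csf1r), with the sorted gene Adgre1 among them, summed to 22177 to 30262 and 7444 to 9472 CPM. F13a1 went against its sum, higher in F4/80high MAMs (583 against 196 CPM on average), as did Timd4, which was lower (0.37 against 8.41 CPM). Folr2 averaged 79.6 against 4.70 CPM. Of 8 tumor epithelium markers 3 had a row, and Cdh1 averaged 9.24 CPM in F4/80high against 234 CPM in F4/80low libraries. Krt8, Krt18, Krt19, Cldn4 and Cldn7 had no row and were not analysed here.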

Additional observations from a re-analysis of the deposited data

Results flagged for a closer look

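Members measured above 3 counts in every library of a lymphocyte group stood out because the comparison of MAM subsets does not use those libraries. Mmp9 averaged 143 CPM in MFL ILC1 libraries, above the level in NK cells of the same MFL tissue. For Timp2 the averages were 62.1 CPM (NK cells, MFL), 56.7 CPM (CD49a- NK cells, LM), 47.8 CPM (CD49a+ NK cells, LM) and 46.8 CPM (ILC1, MFL). Groups of 3 libraries are too small for the outlier check.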

How the results depend on the processing

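All 98 recomputed counts of called genes stayed within 1.5 times the reported ones, and all but 6 of 129 recomputed member log2 fold changes kept their direction and their side of the threshold. Leaving out 1 library gave 6550 to 7234 called genes against 7555 and 8 to 9 called members against 9. Over the same omissions 3 other MMPs, 9 to 11 ADAM and ADAMTS genes, 10 to 12 regulators, 14 to 17 matrix genes and 8 to 9 uptake genes were called, and the ratio of summed MMP to TIMP level was 1.25 to 1.48 in F4/80high and 8.17 to 9.004 in F4/80low MAMs, an omission for the ratio that was added after seeing the data. With the longest transcript as length these ratios moved to 1.96 and 10.3, from 1.38 and 8.58. The fall of Mmp13 lost its call in limma-voom (log2 fold change -1.21, adjusted p = 0.333) and without each F4/80high library or F4/80low replicate 3, and DESeq2 gave an adjusted p of 0.0811; the cause was not tested. Timp3 ranged from -1.01 to 0.21 when 1 library was left out, turning positive without F4/80high replicate 2, and it was not fitted under a minimum of 1 CPM in 3 libraries. Without scaling beyond library size the median log2 fold change of all genes rose to 0.16 and 64.9% of calls were higher, against 50.6%, and Mmp14 was at 0.76. The filter on low counts removed no gene. Over all genes, deviations of same-numbered MAM libraries from their group means correlated at 0.17, -0.01 and 0.03 for numbers 1 to 3, which was not taken as pairing, although erythroid markers were highest in number 3 of both groups (27.7 and 63.7 CPM), and only number 1 correlated best with its own number. With the replicate block 7512 genes and 9 members were called, and no member's call changed.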
